A study of Mus musculus with 3 samples.

Results

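The control left ventricle of this study was read as an abundance profile: every gene with a value in the library of Egln1 floxed mice, ranked by its level. Values were taken from the first of the tables that hold this library, and genes missing there from the other one, which gave 15301 genes of the 15503 genes in the series and 1 library of 3. The mice were of strain C57BL6J and labelled as Egln1 floxed, whereas the design text calls the same group wild type, and the labels name no Cre for it. RNA of left ventricular tissue from 3 mice was pooled in similar amounts into this 1 library and sequenced on an Illumina HiSeq, and the sources used here give neither their age nor their sex. The study set this group beside ventricles with endothelial deletion of Egln1, alone or with Hif2a, and those libraries are not compared here.

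Levels are FPKM, sequenced fragments adjusted for transcript length and library total, so that genes of different length can be set side by side. The share of a gene is its FPKM as a percentage of the summed FPKM of all 15301 genes (657180), an estimate of its share of transcripts rather than of sequenced bases. With 1 pooled library there is no replicate, so no value here carries an error and no difference between genes was tested. The depth is unknown, because FPKM does not keep fragment counts, and no counting interval can be given. In whole tissue, fewer cells of a type and less RNA per cell cannot be told apart.

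The ventricle contracts without rest, and cardiomyocytes devote much of their volume to mitochondria and to sarcomeres, the repeating units in which myosin thick filaments pull on actin thin filaments. ATP comes mainly from oxidation of fatty acids in mitochondria, whose respiratory chain is built from subunits encoded partly in the mitochondrial genome and partly in the nucleus. Calcium released from the sarcoplasmic reticulum starts each contraction, and its reuptake ends it. Endothelial cells, fibroblasts, pericytes and macrophages lie between the cardiomyocytes.

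The sarcomere genes and the nuclear genes of energy supply both stand near the top of the ranking. The promoters of filament and respiratory chain genes differ in their median CG content, however, and examples are shown for that reason. Myl3 and Tnnc1 are filament genes, and Atp5b is counted in the group of the respiratory chain and ATP synthase. Slc25a4 is listed with the mitochondrial carriers and is counted in neither group. The stretches run from 150 bases before to 50 bases after the annotated start, 5′ to 3′ on the gene's strand, from the RefSeq promoter table of build GRCm38.p6. Capitals mark every CG dinucleotide. Myl3 encodes the ventricular essential myosin light chain (chr9:110763528-110763727, plus strand), Tnnc1 cardiac troponin C (chr14:31208162-31208361, plus strand), Atp5b the beta subunit of ATP synthase (chr10:128083157-128083356, plus strand) and Slc25a4 the carrier that exchanges ATP for ADP across the inner mitochondrial membrane (chr8:46211013-46211212, minus strand).
Myl3: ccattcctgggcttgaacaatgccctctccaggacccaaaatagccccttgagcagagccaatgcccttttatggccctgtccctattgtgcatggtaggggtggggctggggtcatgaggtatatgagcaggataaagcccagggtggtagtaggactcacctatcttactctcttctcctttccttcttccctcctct
Tnnc1: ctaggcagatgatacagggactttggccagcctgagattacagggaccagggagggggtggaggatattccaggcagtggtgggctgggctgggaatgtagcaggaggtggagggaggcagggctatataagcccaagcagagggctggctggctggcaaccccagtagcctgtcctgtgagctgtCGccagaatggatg
Atp5b: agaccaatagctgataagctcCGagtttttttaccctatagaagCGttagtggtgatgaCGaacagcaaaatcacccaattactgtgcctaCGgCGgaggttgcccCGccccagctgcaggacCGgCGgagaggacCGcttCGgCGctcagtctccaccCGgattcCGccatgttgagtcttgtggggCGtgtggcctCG
Slc25a4: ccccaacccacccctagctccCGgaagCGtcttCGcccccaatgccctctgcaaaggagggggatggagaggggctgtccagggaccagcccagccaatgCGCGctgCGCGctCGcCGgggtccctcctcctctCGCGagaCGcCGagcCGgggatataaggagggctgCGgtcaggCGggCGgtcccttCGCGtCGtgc
The Myl3 stretch holds 0 CG and that of Tnnc1 holds 1, against 15 in Atp5b and 20 in Slc25a4.

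The profile was concentrated in few genes. The highest gene held 7.91% of summed FPKM, the highest 10 genes held 30.6% and the highest 100 held 55.6%. It took 7 genes to reach 25% of the total, 57 to reach 50%, 627 to reach 75% and 2894 to reach 90%. At the other end, the 10301 genes from rank 5001 down held 5.12%. The median gene stood at 5.23 FPKM. An FPKM of at least 1 was held by 11882 genes (77.7%), at least 100 by 653 genes and at least 1000 by 64 genes, and these 64 held 51.2% of the total. The genes nearest the limit of 1000 were Atp5o, an ATP synthase subunit with 47.9% of its exon bases in another gene (1005 FPKM), and Eno3, muscle enolase (987 FPKM). At the limit of 100 they were Flot1, a membrane scaffold protein (100.4 FPKM), and Psma4, a proteasome subunit (99.7 FPKM).

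**Figure D1:**
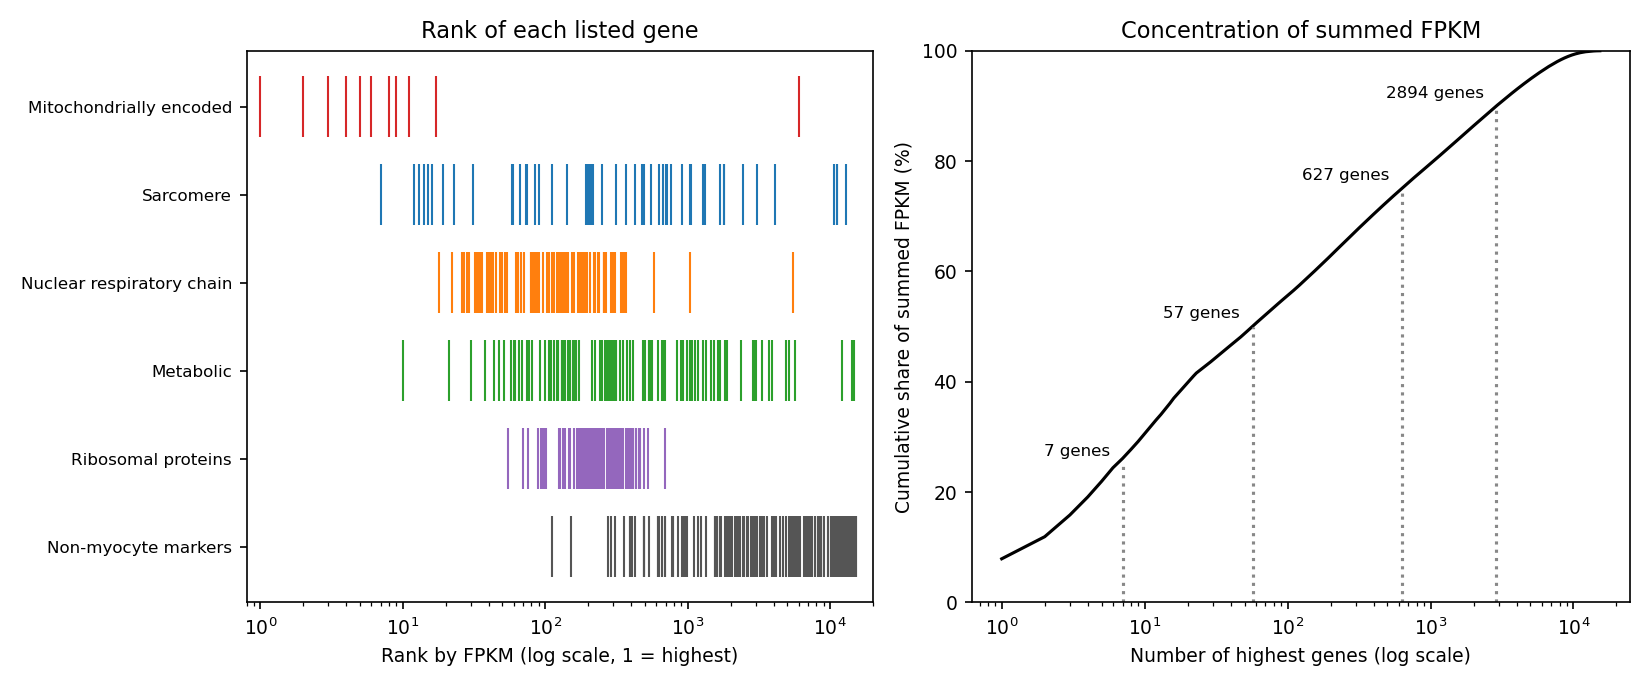
Left, the rank by FPKM (log scale) of each listed gene with a value, 1 tick per gene, for 6 groups. Right, the cumulative share of summed FPKM (percent) against the number of highest genes (log scale), with the 7, 57, 627 and 2894 genes that reach 25%, 50%, 75% and 90% marked.

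Transcripts of the mitochondrial genome held the top of the ranking. Of 15 mitochondrially encoded messenger and ribosomal RNAs on the list, 11 had a value, 10 of these stood among the highest 100 genes, and together they held 29.5% of summed FPKM. mt-Co2, a core subunit of cytochrome oxidase, was highest at 51974 FPKM. The complex I subunit genes mt-Nd1, mt-Nd3, mt-Nd4 and mt-Nd2 stood at 26341, 21465, 18603 and 16151 FPKM, and mt-Cytb, the only subunit of complex III encoded there, at 25886 FPKM. Below them came mt-Nd5 at 10618 FPKM and mt-Nd6 at 9669 FPKM, so that these 8 messenger RNAs lay within 5.38-fold of each other. mt-Nd6 is encoded on the strand opposite to the other subunit genes, and no source used here says whether counting used strand. The exception was mt-Nd4l, a complex I subunit whose reading frame overlaps that of mt-Nd4, at 8.25 FPKM, 2254-fold below its neighbour mt-Nd4. Both genes have 1 near-identical copy. Whether the gap lies in abundance or in how fragments were assigned was not tested.

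The ribosomal RNAs of the mitochondrion, mt-Rnr2 and mt-Rnr1, stood at 8395 and 4937 FPKM and held 2.03% of the total. The sources used here do not name the library kit. Levels of mitochondrial and noncoding RNAs can depend on how RNA was selected for the library. The genes mt-Co1, mt-Co3, mt-Atp6 and mt-Atp8 have no row for this library and were not analysed here, so the mitochondrial share covers the listed genes only. The value of mt-Co2 stands in 1 of the tables of this library, and without that gene the mitochondrial share was 23.5%. Of the 11 genes, 6 have a near-identical copy among annotated transcripts, and their levels are uncertain because a fragment can match more than 1 place. With all genes that have such a copy left out, the mitochondrial share was 16.88%. With the mitochondrial genome left out of the total, the highest 10 genes held 14.6% and 229 genes made up 50%.

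The nuclear genes of the respiratory chain and ATP synthase were high almost without exception. All 83 listed genes had a value, 81 stood among the highest 1000 of all genes and 38 among the highest 100, and they held 11.1% of summed FPKM, or 15.8% outside the mitochondrial genome. Their median was 583 FPKM, against 20034 FPKM for the 8 high mitochondrial messenger RNAs, a ratio of 34.4 between medians. By complex, the median FPKM was 1455 for cytochrome c and complex IV, 1171 for ATP synthase, 808 for complex III, 470 for complex II and 408 for complex I.

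Cox7a1, the heart and muscle form of a complex IV subunit, was the highest nuclear gene of the chain at 4779 FPKM. Cox6c, Ndufa4 and Cox4i1, further complex IV subunits, followed at 2221, 2178 and 2122 FPKM, and the lowest member of that list was Cox4i2, at 9.42 FPKM, an isoform best known from lung. In ATP synthase, Atp5b of the catalytic head stood at 3921 FPKM and Atp5a1, its partner in the head, at 1857 FPKM. The genes for the c subunit of the rotor ring, which encode the same mature protein, summed to 4241 FPKM. Atpif1, the inhibitor of the enzyme, was lowest at 272 FPKM, a 14.4-fold range within the complex. Complex III was the most even of these complexes, with 2.44-fold between Uqcrq (1377 FPKM) and Uqcrc2 (565 FPKM). Complex I spanned 21.04-fold, from Ndufa3 (1300 FPKM) to Ndufa11 (61.7 FPKM). Slc25a4, the ADP and ATP carrier, led the carriers and porins at 2447 FPKM, ahead of the phosphate carrier Slc25a3 at 1209 FPKM. Near-identical copies exist for 17 of the 83 genes, among them Uqcrb and Cox5b. Other genes overlap 33.7% of the exon bases of Atpif1, 19.7% of Uqcrc2 and 10.3% of Cox6a2.

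Sarcomere genes held 10.1% of summed FPKM, or 14.4% outside the mitochondrial genome, over 50 measured genes of 51 listed. No member of this group has a near-identical copy. Only 6 genes made up 67.6% of the group: Myl2, Tnnt2, Tpm1, Myh6, Actc1 and Myl3. Of the 50, 36 stood among the highest 1000 genes, and the group median was 209.6 FPKM.

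In the thick filament, Myl2, the ventricular regulatory light chain, was the highest nuclear gene of the profile at 10992 FPKM. Myl3, the essential light chain, stood at 6363 FPKM, 1.73-fold below it. The myosin heavy chains Myh6, Myh7 and Myh7b summed to 6817 FPKM, of which Myh6, the fast adult form, was 6691 FPKM. A myosin molecule pairs each heavy chain with 1 light chain of each kind, and Myl2 stood 1.61-fold above the summed heavy chains. Mybpc3, the myosin-binding protein of the C zone, was at 1149 FPKM. The M-band genes Myom1 and Myom2 were at 353 and 329 FPKM, whereas their paralogue Myom3 was lowest of the list at 1.42 FPKM. Ttn, the spring that spans from Z-disc to M-band, was at 98.0 FPKM, 68.3-fold below Myh6.

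In the thin filament, Actc1, cardiac alpha-actin, stood at 6426 FPKM and Tpm1, alpha-tropomyosin, at 6746 FPKM. Tnnt2, Tnni3 and Tnnc1 encode the tropomyosin-binding, inhibitory and calcium-binding subunits of cardiac troponin and stood at 7761, 4491 and 3465 FPKM. The complex holds 1 of each subunit, and the levels spanned 2.24-fold. At the Z-disc, Tcap, the titin cap, was highest at 1968 FPKM, followed by the LIM proteins Csrp3 (1159 FPKM) and Fhl2 (979 FPKM). Actn2, the actin cross-linker that builds the disc, was at 710 FPKM. The lowest member was Myot at 14.1 FPKM, and Myozap has no row here.

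Calcium handling held 1.42% of summed FPKM, and 2 of its genes dominated. Atp2a2, the calcium pump that refills the sarcoplasmic reticulum, was at 4135 FPKM, though it has a near-identical copy. Pln, the small membrane protein that restrains the pump, was at 2271 FPKM, 1.82-fold lower, and 64.7% of its exon bases lie within another annotated gene, so its level is uncertain. Genes of calcium storage and release were lower: Hrc at 473 FPKM, Casq2, the calcium-binding protein of the lumen, at 397 FPKM, and Ryr2, the release channel, at 145 FPKM. Ion channels and junctions held 0.309%, led by Fxyd1, a small membrane protein that regulates ion transport (451 FPKM). Gja1, the main ventricular gap junction protein, was at 117 FPKM, and Hcn4, the pacemaker channel, was lowest at 1.73 FPKM.

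Metabolic enzymes and transporters held 7.26% of summed FPKM over 100 genes, all with a value, and 72 stood among the highest 1000. Fatty acid genes held 2.20%, glycolysis and pyruvate 1.64%, the tricarboxylic acid cycle 1.15%, and glycogen 0.170%. A further 1.90% came from the list of phosphocreatine, oxygen binding and adenylate genes, where Mb alone stood at 9325 FPKM. Mb encodes myoglobin, the oxygen store of muscle, and was second to Myl2 among nuclear genes. Apol6 overlaps 31.9% of its exon bases. Ckm and Ckmt2, the cytosolic and mitochondrial creatine kinases of muscle, were nearly level at 1360 and 1334 FPKM.

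Among fatty acid genes, Fabp3, the cytosolic carrier of cardiomyocytes, was highest at 4115 FPKM, and Lpl, which frees fatty acids from lipoproteins, was at 1387 FPKM. Fabp4, a carrier known from endothelium and fat, was at 1202 FPKM. Of 6 measured adipocyte markers, Cidea was at 19.1 FPKM, Scd1 at 4.01 FPKM and Adipoq, the lowest, at 0.281 FPKM. Of the beta-oxidation enzymes, Hadhb was at 805 FPKM, with 2 copies, Acadm at 575, Hadha at 566 and Acadvl at 561 FPKM, while Hadh, Echs1 and Acads were lower at 238, 209 and 98.9 FPKM. Another gene covers 42.9% of the exon bases of Acadvl. Slc27a6, a fatty acid transporter, was lowest at 0.171 FPKM, whereas the uptake genes Cd36 and Slc27a1 were at 432 and 48.2 FPKM. In the list of the tricarboxylic acid cycle, Mdh1, the cytosolic malate dehydrogenase of the malate-aspartate shuttle, stood at 1126 FPKM, and without it the list held 0.975%. Among the other members of this list, Idh2 was at 1107 FPKM and Mdh2 at 817 FPKM. Cs, which makes citrate, was at 509 FPKM, and Suclg2 was lowest at 68.5 FPKM. The isocitrate dehydrogenase genes Idh3b, Idh3g and Idh3a were at 444, 342 and 251 FPKM. In glycolysis, Aldoa was at 1700 FPKM and Eno3 at 987 FPKM. Gapdh was higher at 2058 FPKM but has 48 near-identical copies, and 10 of the 27 genes of this list have at least 1. Slc16a3, which exports lactate, was at 0.875 FPKM, whereas Slc16a1, another lactate transporter of this list, was at 70.3 FPKM. Oxct1, which activates ketone bodies for oxidation, led its list at 590 FPKM. Other genes overlap 19.6% of the exon bases of Fabp3, 15.5% of Ckm, 12.6% of Oxct1 and 10.7% of Pfkm.

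**Figure D2:**
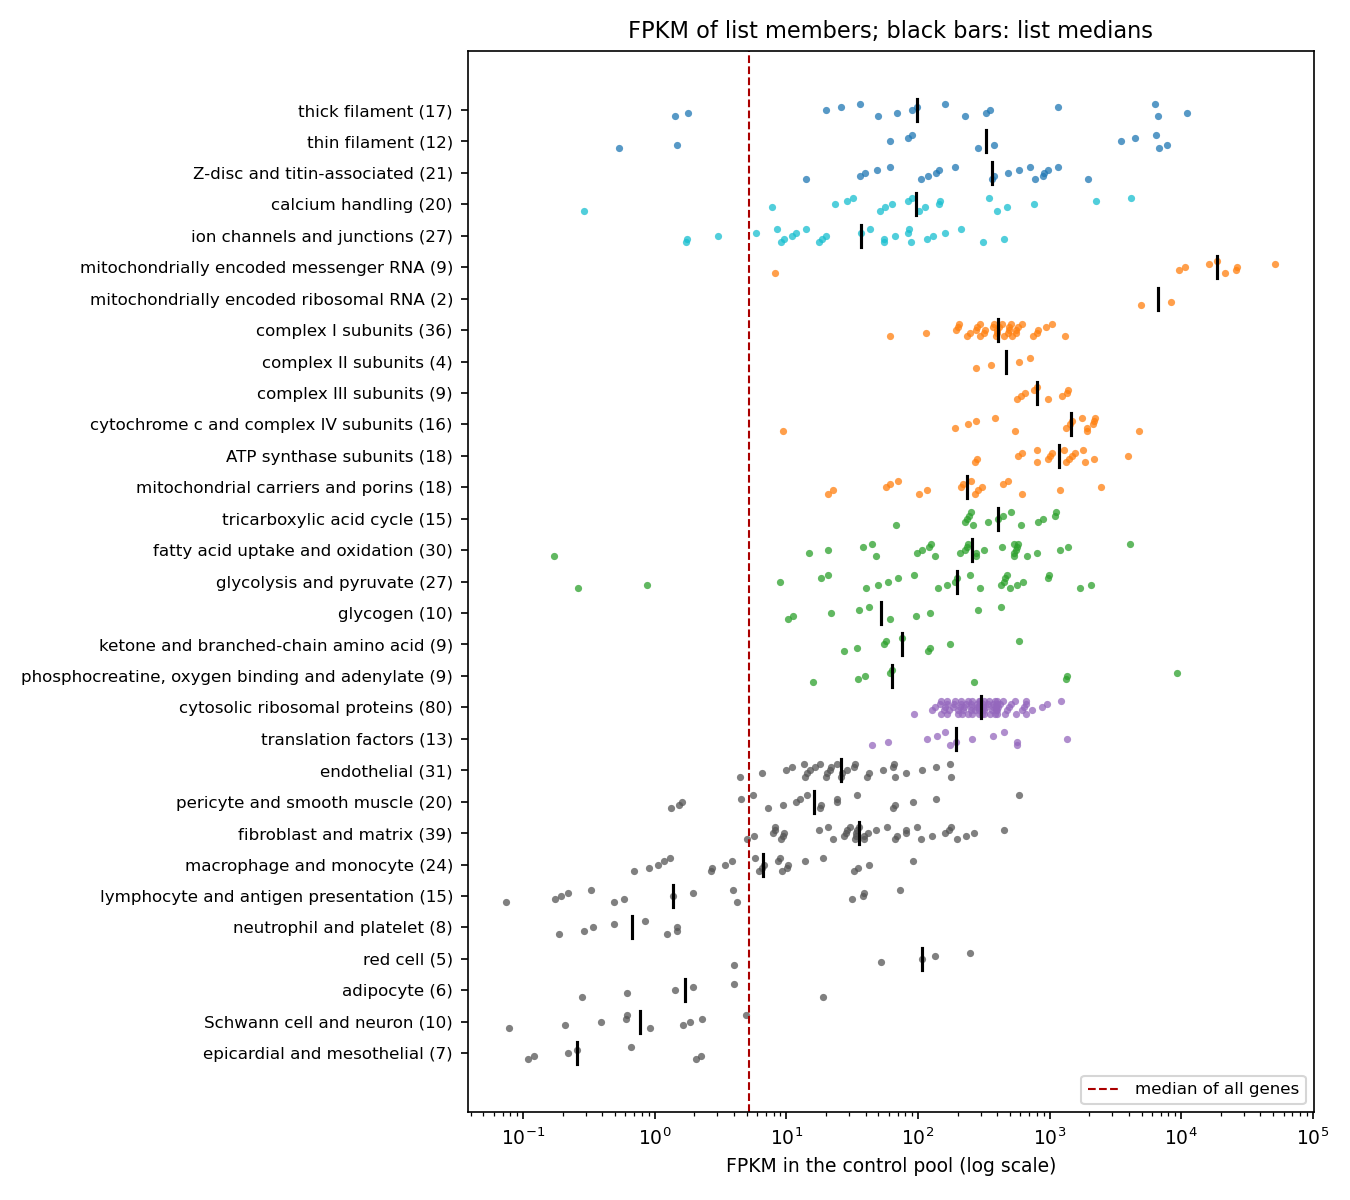
FPKM (log scale) of every measured member of each list, 1 point per gene, with the list median. The dashed line is the median of all genes (5.23). The mitochondrial messenger RNAs lie between 9669 and 51974 apart from mt-Nd4l at 8.25, and the fibroblast and matrix list has a median of 35.5.

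RNA levels were set side by side in 27 pairs of related genes, picked after their values were seen and therefore given as a description only. Protein was not measured, and in whole tissue a ratio can also reflect the mix of cells, which was not tested. In 16 pairs the higher gene was at least 10-fold above the other, and in 23 at least 2-fold. The widest ratios were those of Tnni3 over the slow skeletal and fetal troponin I gene Tnni1 (4491 and 0.535 FPKM, 8395-fold), and of Aldoa over the brain aldolase Aldoc (1700 and 0.260 FPKM, 6536-fold). Myl2 was 419-fold above the atrial light chain Myl7, and Myl3 was 317-fold above the atrial Myl4. Myh6 was 74.4-fold above Myh7, the slow heavy chain, and 13.3% of the exon bases of Myh7 overlap another gene. Actc1 was 22.3-fold above the skeletal actin gene Acta1.

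Metabolic pairs leaned to the muscle forms. Slc2a4, the insulin-responsive glucose transporter, was 21.3-fold above Slc2a1, and Pfkm was 20.6-fold above the platelet form Pfkp. Pfkl, a further gene of that family that was not paired, stood higher than Pfkp, at 50.1 against 20.6 FPKM, with Pfkm at 425 FPKM. Cox7a1 was 19.9-fold above Cox7a2, and Cox6a2 was 9.21-fold above Cox6a1. Cpt1b, the muscle gatekeeper of mitochondrial fatty acid entry, was 15.2-fold above the liver form Cpt1a, although 81.4% of its exon bases overlap another gene. Other pairs were closer. Ldhb was 2.15-fold above Ldha, where both lactate dehydrogenase genes have copies, Hk2 was 1.55-fold above Hk1, and Pygm 1.499-fold above Pygb. Eef1a2, the elongation factor form of muscle and neurons, was level with Eef1a1 (1.005-fold), which has 9 copies.

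**Figure D3:**
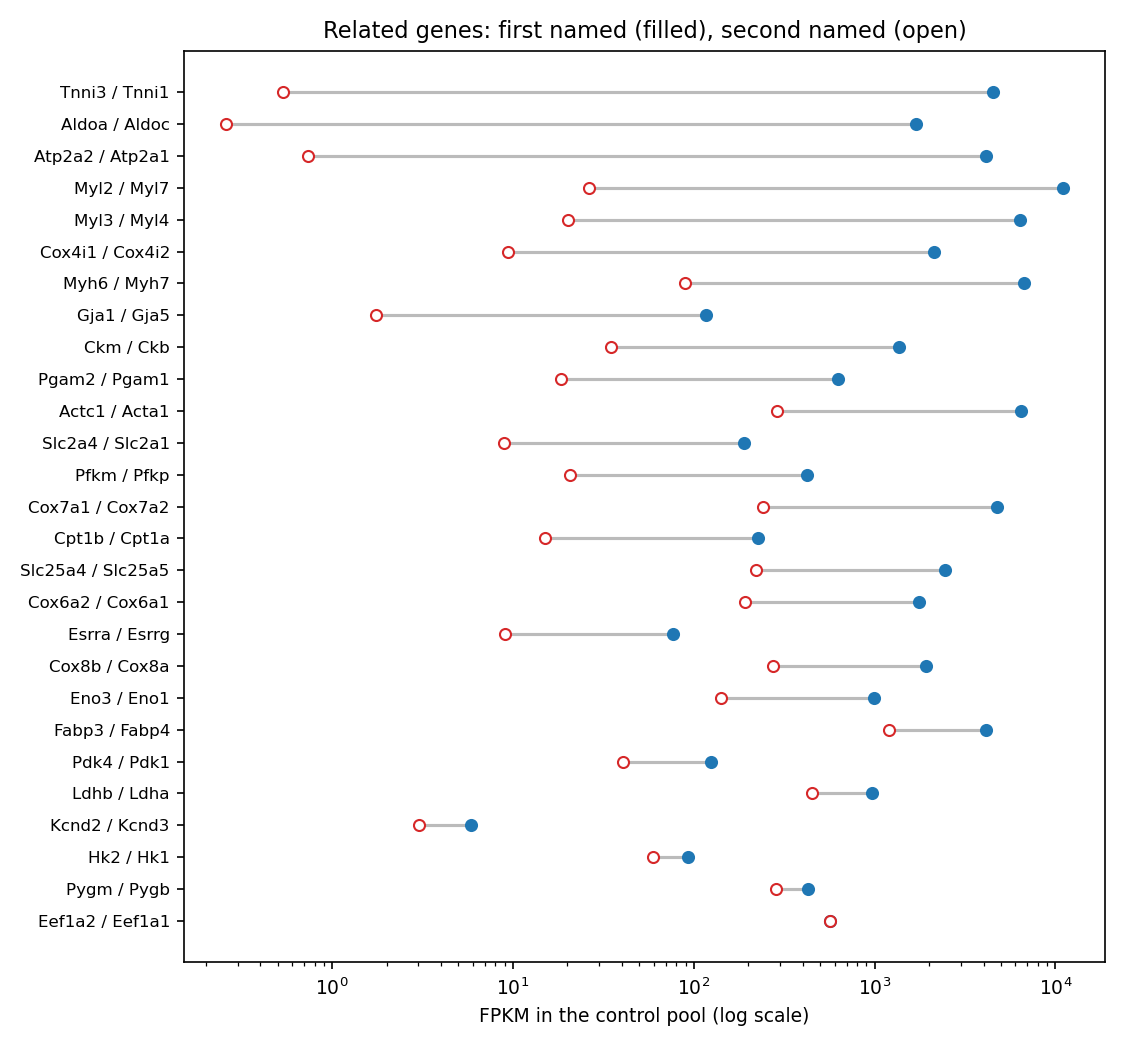
FPKM (log scale) of both genes in each of 27 pairs, the higher filled and the lower open, joined by a line. The pairs run from Tnni3 over Tnni1 (8395-fold) to Eef1a2 over Eef1a1 (1.005-fold).

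Markers of other cells held a small share. Of 187 listed non-myocyte genes, 165 had a value and held 1.001% of summed FPKM. Of these 165, 0 stood among the highest 100 genes and 32 among the highest 1000, which make up 6.54% of all genes. The median of the 165 was 13.8 FPKM, against 5.23 FPKM over all genes. Fabp4 (rank 57, 0.183%) was counted as metabolic, and counting it here makes the share 1.184% with 1 gene among the highest 100. Without Des and Abcc9, which cardiomyocytes also express, the share was 0.902%, and the sarcomere group summed to 11.2 times as much FPKM. The first gene of these lists in the ranking was then Gsn, an actin-severing protein abundant in fibroblasts, at rank 151 with 452 FPKM.

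Fibroblast and matrix genes held 0.445% and endothelial genes 0.212%, or 0.395% with Fabp4. The order of these shares depends on the lists, since vessel cells also make matrix genes such as Sparc, Sparcl1 and Col4a1. The matrix proteins Sparc, Mgp and Dcn stood at 268, 230.3 and 197 FPKM. Col4a1 and its partner chain of the basement membrane summed to 187 FPKM, and Col1a1, Col1a2 and Col3a1, chains of fibrillar collagen, to 129 FPKM. The fibroblast receptors Pdgfra and Ddr2 were far lower, at 7.92 and 5.03 FPKM. All 31 endothelial genes had a value. Aqp1, a water channel of capillaries, led at 179 FPKM, followed by Ly6c1 (175 FPKM, with a copy) and the caveolar protein Cav1 (137 FPKM). The junction genes Cdh5 and Pecam1 were at 64.3 and 54.7 FPKM, and Plvap, a protein of fenestrated vessels, was lowest at 4.44 FPKM. Rgs5, a pericyte gene, stood at 136 FPKM, Acta2, smooth muscle actin, at 64.1 FPKM, and Cnn1, calponin of contractile smooth muscle, at 1.34 FPKM.

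Immune lists were lower than the red cell list. Macrophage and monocyte markers held 0.0496%, led by Lyz2 (91.9 FPKM, with a copy) and the complement chains C1qa, C1qb and C1qc at 42.1, 35.3 and 32.6 FPKM. Of the lymphocyte and antigen presentation list, Cd74 and 3 class II genes summed to 183 FPKM, while all other measured members summed to 13.6 FPKM and none passed 4.23 FPKM. Neutrophil and platelet genes had a median of 0.670 FPKM. The 4 globin genes, which mark red cells, summed to 546 FPKM, each with a near-identical copy, and Hbb-bs at 249 FPKM stood above Aqp1. Schwann cell and epicardial lists held 0.00207% and 0.000864%.

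The tissue label was checked on markers of other chambers and organs. The ventricular genes Myl2 and Myl3 were at 10992 and 6363 FPKM, while the atrial genes Myl7, Myl4 and Sln were at 26.3, 20.1 and 7.85 FPKM, and Bmp10 has no row. Nppa, an atrial hormone gene that stressed ventricle also expresses, was at 160.2 FPKM, with 61.5% of its exon bases in another gene. Of the skeletal list, Myh1, Myh2, Myh4, Actn3 and Pvalb have no row, Myl1 was at 26.1 FPKM with a copy, Tnnt1 at 16.6 FPKM and Mybpc2 at 10.2 FPKM, whereas Ckm and Acta1 are shared with heart. No listed lung, kidney or thymus marker had a row, and of 7 liver markers Apoa2 and Ttr were listed at 0.359 and 0.129 FPKM. A missing row does not show that a gene was absent, since mt-Co1 has none either.

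Ribosomal protein genes were a compact group of 4.23% of summed FPKM, and all 80 stood among the highest 1000. Rplp1, a stalk protein of the large subunit, was highest at 1223 FPKM. Rpl29, of the same subunit, was lowest at 92.8 FPKM, a 13.2-fold range. Near-identical copies exist for 73 of the 80 genes, and with all genes that have copies left out the share was 0.651%. Regulators stood lower than the structural genes. Among transcription factors the median was 18.5 FPKM, with Nfe2l1 highest at 194 FPKM, Esrra, a receptor that drives mitochondrial genes, at 76.7 FPKM, and the cardiac factors Nkx2-5 and Gata4 at 37.0 and 30.8 FPKM. The oxygen sensing list had a median of 22.2 FPKM, in which Egln1, the gene that is floxed in these mice, ranked 520 of all genes and Hif3a, an HIF alpha subunit, 12659.

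Genes ranked high by FPKM were short and compact. Because FPKM is adjusted for transcript length, rank and length are not independent, and how far this shapes the trend was not tested. Outside the mitochondrial genome, the median coding length was 525 bases for the 89 coding genes among ranks 1 to 100, 892.5 bases for ranks 101 to 1000, 1236 bases for ranks 1001 to 5000 and 1509 bases below that. Exons were merged over all annotated transcripts of a gene. Their median number was 5 for these 89 genes and 10 over all 13506 coding genes outside the mitochondrial genome. The median gene span was 6869 against 24123.5 bases for the same 2 sets. Near-identical copies were more frequent at the top, at 25.8% of coding genes among ranks 1 to 100 against 6.41% from rank 5001 down.

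Weighting each gene by its coding length turned shares of transcripts into shares of coding bases and reordered the groups. Over the 13515 coding genes, the sarcomere went from 10.5% to 14.8%, while the nuclear respiratory chain went from 11.5% to 5.26% and ribosomal proteins from 4.36% to 1.81%. The mitochondrial genome went from 28.4% to 22.0%, and metabolic genes were little moved, from 7.49% to 6.97%. Myh6 took the first place with 5.22% of coding bases. Ttn, with a longest annotated coding length of 105639 bases, moved from rank 659 to rank 9 and held 1.39%. Which Ttn transcript this ventricle makes was not measured, and a shorter one would lower that share. Ryr2 moved from rank 465 to 25. In the other direction, Atp5e, a short ATP synthase subunit, moved from rank 48 to 386, and Rps29 from 68 to 517.

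**Figure D4:**
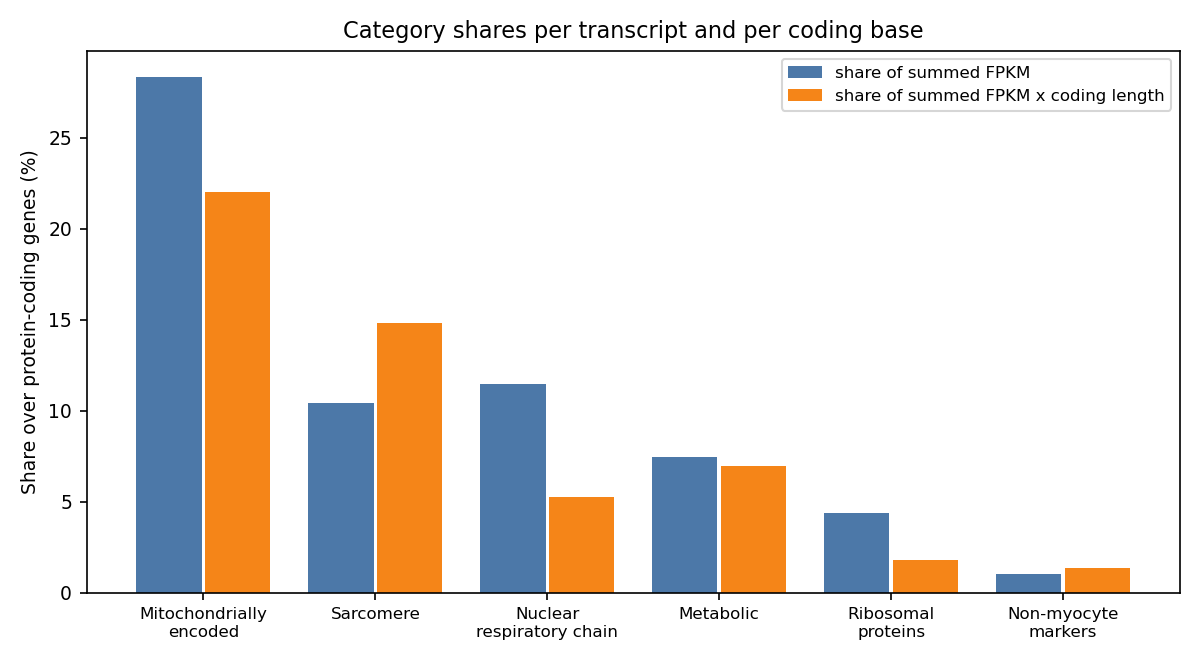
Shares (percent) of the coding genes by FPKM and by FPKM multiplied by coding length, for each group. The sarcomere goes from 10.5 to 14.8 and the nuclear respiratory chain from 11.5 to 5.26.

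The CG content of promoters differed between filament and respiratory chain genes in the median. The 4 stretches printed above were chosen to show it after the values were seen, although Slc25a4 is in neither group. Within 300 bases around the start, the median number of CG dinucleotides was 5 in 33 promoters of thick and thin filament genes (25 of 29 genes matched) and 19 in 73 promoters of the nuclear respiratory chain (68 of 83 genes matched). It was 6 in the Z-disc list (17 of 21 genes matched) and 22 in ribosomal protein promoters (62 of 80). Promoters of non-myocyte markers also had a median of 6 (110 of 165). Over all nuclear genes with a value it was 19, from 14365 promoters (11308 of 15260 genes matched). At most 5 CG were found in 63.6% of the filament promoters, 41.7% of the Z-disc promoters, 2.74% of the respiratory chain promoters, 15.1% of all those with a value and 43.6% of the whole table, whose median was 7. Single genes went the other way, with 27 CG in Tpm1, 2 in Cox8b and 7 in Cox7a1. The highest 100 genes mixed both kinds, with a median of 16.

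Short motifs were also counted in these 300 bases, as letters only. CATTCC, the core of the MCAT element, was searched on either strand. It was found in 36.4% of filament promoters, 33.3% of Z-disc promoters and 12.5% of all promoters with a value. The CArG box, the motif of serum response factor, was found in 18.2%, 16.7% and 1.35% on the same basis. It was found in 0 of the respiratory chain promoters. CCGGAAG, an ETS-type motif searched on both strands, was found in 0 of the filament promoters, 23.3% of the respiratory chain promoters, 37.5% of the ribosomal protein promoters and 15.9% of all with a value. AAGGTCA, a core of the estrogen-related receptor motif, was searched on both strands. It was found in 12.3% of the respiratory chain promoters, 12.5% of the 16 calcium handling promoters and 3.35% of all with a value. Ribosomal protein promoters held it in 6.94%, filament promoters in 6.06% and those of fatty acid genes in 3.85%. TATAAA starting 40 to 20 bases before the start was found in 0 of the filament promoters and 1.24% of all with a value. Only these exact letters were counted. The related TATATAA in the printed Tnnc1 stretch was not, so the 0 does not show that filament promoters lack such boxes. CCGGAAG itself contains a CG, and TATAAA can lie inside a CArG box. Over the 32851 promoters of the whole table, the shares were 14.7% for CATTCC, 1.63% for the CArG box, 8.86% for CCGGAAG, 4.72% for AAGGTCA and 1.99% for TATAAA.

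**Figure D5:**
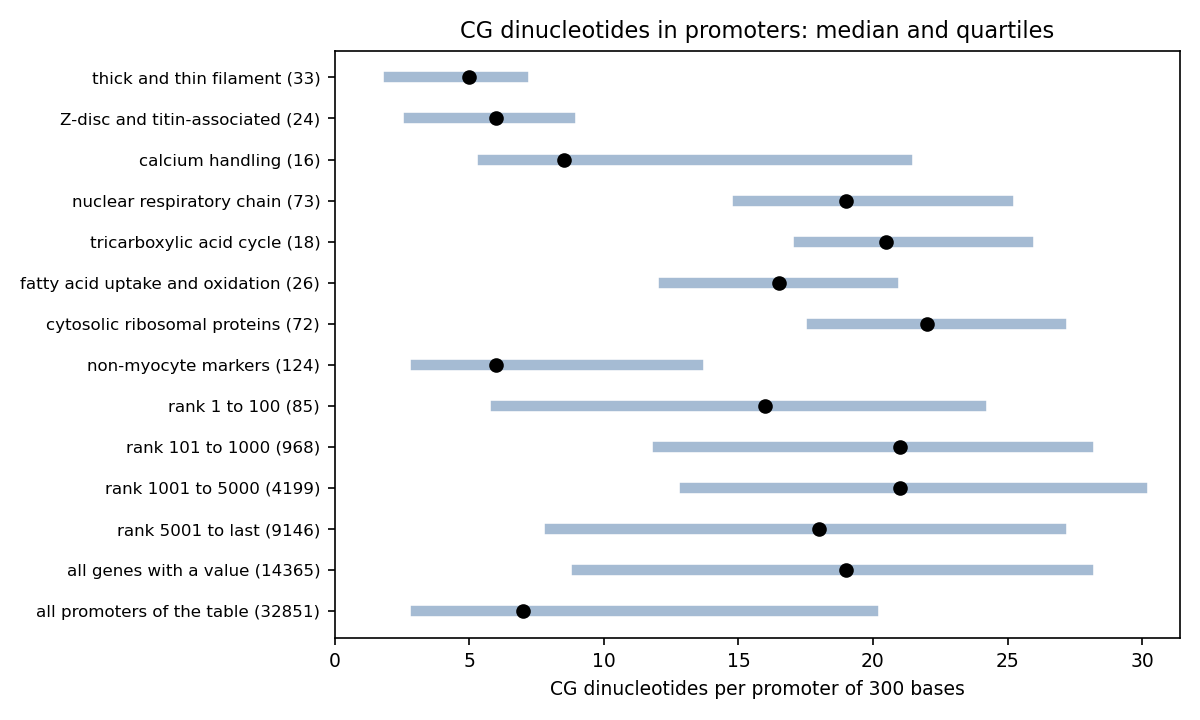
Median (point) and quartiles (bar) of the number of CG dinucleotides in the 300 bases around the start, for the promoters of each gene group, of 4 tiers of FPKM rank, of all genes with a value and of the whole table, with the number of promoters in brackets. The filament promoters have a median of 5 and the respiratory chain promoters a median of 19.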

How the data were processed

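RNA sequencing of pooled left ventricular RNA gave 1 library per genotype. Per the submitters' processing notes, TopHat2 (a spliced aligner) and Cuffdiff (abundance estimation) were used. The sources used here give no version, library kit, genome build, annotation or strand setting. The unit of the authors' deposited tables is FPKM, per the file headers. Both tables with this library were used: 14827 and 14843 genes, 14369 shared, 14368 of them identical, the largest relative difference being 0.000879, and 474 genes added from the second.

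Genes were ranked by FPKM and summed over 41 lists (692 genes), with no filter or pseudocount. Members and lists were chosen with earlier results of these data known. The text names the highest 25 genes overall and outside the mitochondrial genome, the 6 highest and the lowest of each list, the oxygen sensing genes and the neighbours of each limit; pairs, motifs, printed promoters and some other genes were chosen after their values were seen. GENCODE M21 (GRCm38), matched by gene ID for 15099 genes, gave lengths and exon overlap (named from 10%), with bedtools 2.31.1. Lengths are those of the transcript with the longest coding sequence of each gene. Listed genes were matched by gene ID where the deposited symbol differs: the rows named RPL24 and Emr1 were read as Rpl24 and Adgre1, and the row named Rpl24, whose ID is that of Zbtb11, as Zbtb11. Near-identical copies were sought with minimap2 2.31 among its transcripts (at least 95% identity over 200 bases or 50% of the query, genes sharing no exon bases). Python 3.11.15, pandas 2.3.3 and numpy 2.4.6 were used. The share computation was tested on simulated data. The alternatives were another table order, a minimum FPKM of 1, other denominators, coding length weighting and removal of genes with copies or of mt-Co2. Some genes that the naming rule gives are left out of the text.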

Additional observations from a re-analysis of the deposited data

How the results depend on the processing

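Of 74 alternative values, 67 stayed within 1.5 times of the reported one, a limit set because there is no spread between replicates. With mitochondrially encoded genes left out of the total, the highest 10 genes held 14.62% and 229 genes made up 50%. With FPKM times coding length, 98 genes made up 50%, the nuclear respiratory chain held 5.256% and ribosomal proteins 1.813%. With genes that have a near-identical copy left out, the mitochondrial share was 16.88% and the ribosomal protein share 0.6508%. These changes follow from the construction of each alternative. Sarcomere, metabolic and non-myocyte shares stayed within that limit under each alternative run. The coding length weighting, the removal of near-identical copies and of mt-Co2, the count without Des and Abcc9 and the move of Fabp4 to the non-myocyte genes were chosen after seeing the data. A planned weighting by RefSeq protein length was not run, and coding length stands in its place. No paired analysis was possible because each genotype has 1 library, which also leaves no replicate to leave out. Depth is unknown, so the precision of low values cannot be given.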

Other observations

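Genes outside every list held 32.3% of summed FPKM and 4 of the highest 100 places. Both values depend on the lists, which were chosen with earlier results of these data known. The genes named here were chosen after their values were seen. Bsg, basigin, a chaperone of lactate transporters, was highest at 933 FPKM. Ech1, an enzyme that handles unsaturated fatty acids, was at 814 FPKM. Malat1, a nuclear long noncoding RNA, was at 670 FPKM, the highest noncoding transcript outside the mitochondrial genome. Nme2, a nucleoside diphosphate kinase with 3 near-identical copies and 48.9% of its exon bases in another gene, was at 633 FPKM.

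Below them stood Crip2, a LIM protein (591 FPKM), the lysosomal genes Psap and Ctsd (575 and 470 FPKM, with 34.4% of the exon bases of Ctsd in another gene), and Hspb6, a small heat shock protein of muscle (492 FPKM). Got1 and Got2, the transaminases of the malate-aspartate shuttle, were nearly level at 412 and 392 FPKM, although Got2 has 2 near-identical copies. By annotated class, coding genes held 96.9% of summed FPKM, noncoding genes other than mitochondrial ribosomal RNA 0.694%, and 474 pseudogenes 0.179%, the highest being Rpl34-ps1 at 157 FPKM.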
